A study of Hydra vulgaris with 12 samples.

Results

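The 200 transcripts described here carried Hywi-bound antisense and Hyli-bound sense piRNA in colchicine-treated and in wild-type Hydra, while almost no mRNA was read from them in whole hatchlings. They were picked from 38747 transcripts of Hydra vulgaris AEP by measured values, in CPM, the counts per 1e6 counts of the column. Antisense counts in the Hywi immunoprecipitate (IP) and sense counts in the Hyli IP each had to reach 10 CPM in both conditions and to differ less than 4-fold between them, and mRNA had to stay under 0.5 CPM in each of 3 transgene-free libraries. The mRNA limit alone was met by 19495 of all transcripts, so low mRNA is not particular to this set. The piRNA criteria were met by 1125 transcripts, of which 888 had 0.5 CPM or more of mRNA in at least 1 transgene-free library. The remaining 237 were ranked by the smallest of their 4 piRNA values and the first 200 were kept. The transcripts are named as in the files, which do not pair them with genes, so their identity, their sequence, the hywi transcript and cell type markers were not analysed here.

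PIWI proteins are Argonaute proteins that carry short guide RNAs called piRNAs. In the ping-pong cycle an antisense piRNA in one PIWI protein directs the cutting of a sense transcript, and an end of the cut RNA is loaded into a second PIWI protein as a sense piRNA, which can in turn direct the cutting of antisense RNA. Transposon transcripts are the best known substrates of the cycle, and Hydra, a freshwater polyp, has Hywi and Hyli as PIWI proteins in its somatic stem cells. A pair of antisense and sense counts is not the overlap of piRNA ends that defines ping-pong, and that overlap was not analysed here, so the name "ping-pong" rests on strand counts alone.

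Small RNA and degradome libraries came from whole animals, 225 per IP and 20 per degradome, with 1 library per condition. The colchicine-treated animals were of the cnnos1::GFP transgenic line and were depleted of interstitial cells, and the wild-type animals were AEP without a transgene, so drug, cell loss and line cannot be told apart. In these whole-animal samples fewer cells of a type and less RNA per cell cannot be told apart either. A degradome library reads poly(A) RNA that has lost its cap, since the adapter was ligated with the cap left in place. The mRNA libraries were made from 10 hatchlings each, 4 days after hatching. The 3 hywi knockdown libraries held offspring of the hywi RNAi-1 line with its hairpin transgene, expressed in epithelial stem cells, and the 3 transgene-free libraries held offspring of that line without it. These hatchlings were other animals than those used for the IPs and the degradome.

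Estimated counts summed to 22.2 to 27.6 M per mRNA library (M for 1e6). The Hywi antisense columns held 16.6 M in colchicine-treated and 19.5 M in wild-type animals, and the Hyli sense columns held 6.68 M with colchicine and 28.8 M in wild type. The degradome was shallow, with 176897 counts in colchicine-treated and 765341 in wild-type animals, so that 3 counts, the floor used here, stood for 17.0 CPM with colchicine and 3.92 CPM in wild type. In the transgene-free mRNA libraries 0.5 CPM was 11.1 to 13.8 counts, which makes "low mRNA" a handful of reads rather than none. Transcript lengths were not used, so values compare libraries for 1 transcript and do not rank transcripts by abundance.

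The 4 values that chose the transcripts are given as a description. The median Hywi antisense level was 83.6 CPM in colchicine-treated and 86.0 CPM in wild-type animals, with a range of 13.3 to 819 CPM with colchicine and of 14.7 to 1189 CPM in wild type. The median Hyli sense level was 43.6 CPM in colchicine-treated and 58.1 CPM in wild-type animals. Together the 200 made up 2.54% of Hywi antisense counts with colchicine and 2.45% in wild type, and 1.75% of Hyli sense counts with colchicine and 2.03% in wild type. The 888 transcripts with mRNA had higher medians, at 192 CPM with colchicine and 203 CPM in wild type for Hywi antisense. Their Hyli sense medians were 117 CPM with colchicine and 162 CPM in wild type. Between Hywi antisense and Hyli sense levels, both limited by the rule, the Spearman rho across the 200 was 0.37 in colchicine-treated and 0.27 in wild-type animals, and across the 888 it was 0.49 in each.

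The transcript ranked first, t31602aep, had 267 CPM of Hywi antisense in colchicine-treated and 655 CPM in wild-type animals, and its Hyli sense level was 271 CPM with colchicine and 302 CPM in wild type. The next, t35467aep, had 414 CPM of Hywi antisense with colchicine and 377 CPM in wild type, and Hyli sense was 261 CPM with colchicine and 573 CPM in wild type. The third, t38686aep, had 708 CPM of Hywi antisense with colchicine and 222 CPM in wild type, and Hyli sense was 429 CPM with colchicine and 1292 CPM in wild type. The levels in its proteins leaned opposite ways between the conditions, within the 4-fold limit on each. Among the first 8, t29390aep, t14707aep, t22192aep and t11485aep had more Hyli sense with colchicine, at 768, 602, 745 and 244 CPM, against 279, 333, 414 and 208 CPM in wild type. The last 2 kept, t34185aep and t6252aep, both had a smallest value of 13.3 CPM (13.32), and the first 2 left out, t13987aep and t21674aep, were at 13.31 CPM, so nothing separates the set at its lower edge.

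**Figure D1:**
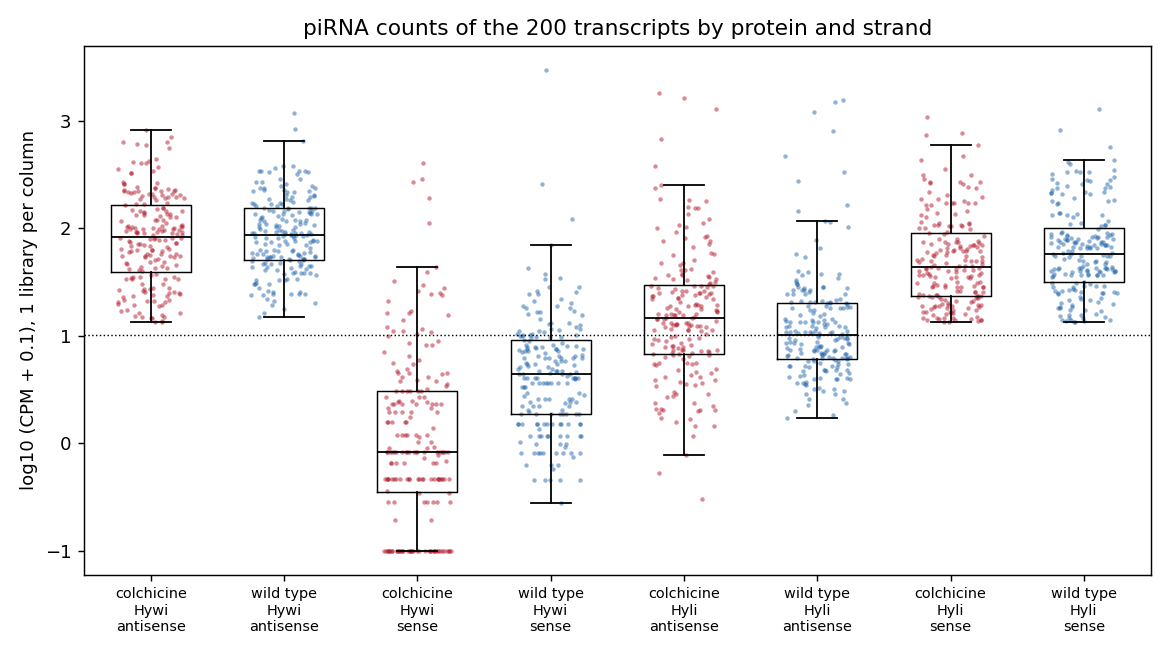
Level of each of the 200 transcripts (log10 of CPM + 0.1) in the 8 strand columns of the Hywi and Hyli IPs, colchicine (red) left of wild type (blue). Boxes give the quartiles and the median, whiskers reach the last point within 1.5 box lengths, and the dotted line marks 10 CPM, which the rule required of Hywi antisense and Hyli sense. The other strands were free to vary: Hywi sense had a median of 0.735 CPM with colchicine and 4.30 CPM in wild type, and Hyli antisense 14.4 CPM with colchicine and 10.0 CPM in wild type.

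The strands that the rule did not use differed between the proteins. The median Hywi sense level was below the median antisense level, each scaled to its own column, and lower in colchicine-treated animals. It was 0.735 CPM with colchicine and 4.30 CPM in wild type. Not every transcript followed the medians: t34599aep had 2977 CPM of Hywi sense and 149 CPM of Hywi antisense in wild type. In all, 109 transcripts with colchicine and 25 in wild type were under 1 CPM of Hywi sense. That was 54.5% of the 200 with colchicine and 12.5% in wild type. Of all transcripts 68.5% with colchicine and 59.9% in wild type were under 1 CPM, and of the 888 with mRNA 27.1% and 3.27%. The 200 were thus under 1 CPM less often than the table as a whole, but more often than the 888. On the log2(CPM + 1) scale, 55 of the 200 (27.5%) were lower with colchicine by 4-fold or more and 12 were higher by as much, while 8.64% of all transcripts were lower and 3.36% higher by as much. Among the 888 with mRNA the lower share was 43.4%. A transcript under 1 CPM of Hywi sense in wild type could not count as lower on this scale. As given above, more of all transcripts than of the 200 were under it, so the contrast with all transcripts is partly built in. The members were chosen from the other strand of the same libraries, and with 1 library per condition no test was possible.

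Antisense counts made up 98.8% of all Hywi counts on the 200 in colchicine-treated animals (95% Wilson interval 98.7 to 98.8%) and 97.3% in wild-type animals (97.2 to 97.3%). The median transcript was at 99.8% with colchicine and 99.3% in wild type. The rule required Hywi antisense counts, which favours a high share. Pooled over the 888 with mRNA the share was 95.9% with colchicine and 92.3% in wild type. Over all transcripts it was 85.9% with colchicine and 87.4% in wild type, the opposite direction. Among the 200 the direction of the pooled difference rested on the most abundant transcripts: without the 10 with most counts in either library, the remaining 183 were at 99.05% with colchicine and 99.07% in wild type. Five-prime ends, lengths and base composition of the small RNAs are not in count tables and were not analysed here. In 5 transcripts, singled out after their values were seen, under 90% of Hywi counts were antisense in at least 1 library. For t34599aep the antisense share was 84.0% with colchicine and 25.7% in wild type, where Hywi sense reached 2977 CPM, against 113 CPM with colchicine. For t18666aep it was 68.8% with colchicine and 99.6% in wild type, for t33489aep 54.1% with colchicine and 99.1% in wild type, and for t5109aep 26.7% with colchicine and 91.6% in wild type. For t27077aep it was 92.5% with colchicine and 88.7% in wild type. In 3 of the 5, then, Hywi sense RNA stood out with colchicine, in t34599aep it stood out in wild type, and in t27077aep it was high in both.

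Hyli carried a second, antisense population on the same transcripts, and its share was larger in colchicine-treated animals. Summed over the 200, antisense counts were 37.3% of Hyli counts with colchicine (95% Wilson interval 37.1 to 37.5%) and 15.6% in wild type (15.5 to 15.7%). The median transcript had 21.2% with colchicine and 6.64% in wild type. The share was higher with colchicine in 175 of the 200 (87.5%), against 38.8% of all transcripts, those without Hyli counts included, and 90.8% of the 888 with mRNA. The sum over all transcripts moved the same way, at 48.0% with colchicine and 28.9% in wild type, so a larger antisense share was not limited to the 200.

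Part of the pooled share came from a few transcripts that Hyli bound almost wholly antisense. Antisense counts exceeded sense counts in 32 transcripts with colchicine (16%) and in 10 in wild type (5%). The 888 with mRNA were close to that, at 18.0% with colchicine and 6.64% in wild type. All transcripts were at 61.9% with colchicine and 65.8% in wild type, but the rule required Hyli sense counts, which favours a low number among the 200. The highest, t18043aep, had 1833 CPM of Hyli antisense and 13.9 CPM of Hyli sense with colchicine, a share of 99.2%, against 1485 CPM of antisense and 36.9 CPM of sense in wild type, a share of 94.2%. In t32540aep the share was 98.3% with colchicine and 94.8% in wild type. In t26654aep it was 90.4% with colchicine and 43.1% in wild type, with sense at 23.5 CPM with colchicine and 89.3 CPM in wild type, and antisense at 239 CPM with colchicine and 166 CPM in wild type. At the other end t31304aep, t8791aep and t15772aep had antisense shares of 0.519%, 0.558% and 0.711% with colchicine, against 0.463%, 0.361% and 1.07% in wild type. The 200 ran from 0.519% to 99.2% with colchicine and from 0.2495% to 94.8% in wild type, while the required Hyli sense kept all of them off 100%, the median of all transcripts with Hyli counts with colchicine.

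**Figure D2:**
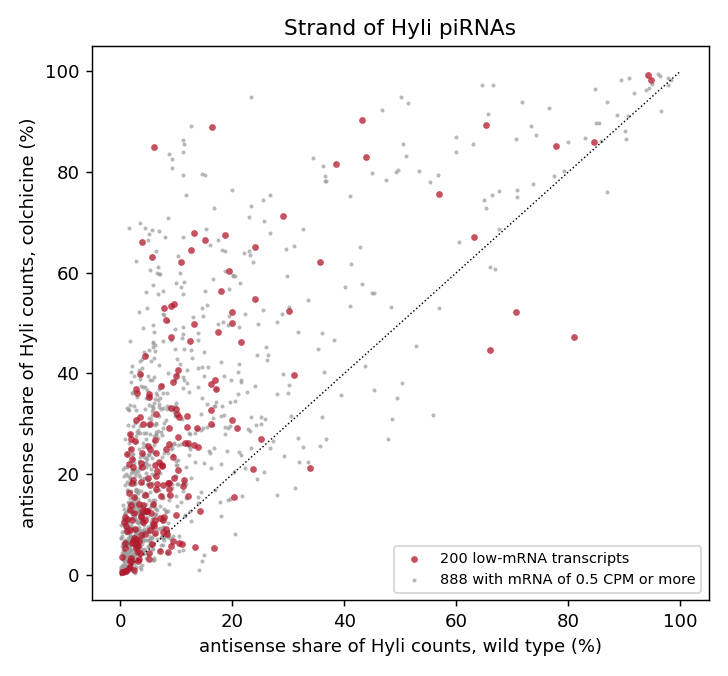
Antisense share of Hyli counts (%) per transcript, wild type on the x axis and colchicine on the y axis, for the 200 low-mRNA transcripts (red) and the 888 with mRNA (grey), with the line of equal shares dotted. Most points lie above the line: the share was higher with colchicine in 175 of 200 and 806 of 888.

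The level of Hyli antisense RNA, scaled by the total of its own column, leaves out any change in antisense share that the whole column had. On that scale it was at least 4-fold higher with colchicine in 17 transcripts (8.5%), against 8.67% of all transcripts, and at least 4-fold lower in 4, namely t33503aep, t30854aep, t27289aep and t22431aep (2%), against 5% of all transcripts. The share that was higher lay near that of all transcripts, and the share that was lower was below it. Hyli antisense levels ranked the 200 much as Hywi antisense levels did, with a Spearman rho of 0.80 in colchicine-treated and 0.76 in wild-type animals. Both columns count antisense piRNA, often as fractions of reads shared with other transcripts. Among the 200, Hywi antisense counts were whole numbers in 4 transcripts with colchicine and 24 in wild type, and Hyli sense counts in 143 with colchicine and 120 in wild type. In the 3 transcripts with only whole Hyli counts the antisense share was 10.5% with colchicine and 2.82% in wild type, a difference of 7.65 percentage points, against 21.7 over all 200.

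Each of the 200 transcripts had degradome counts in wild-type animals. All 200 had at least 3 there, with a median of 23.8 and a range of 3 to 523 counts. Of all transcripts 19.4% had that many, and of the 888 with mRNA 99.8%. The rule nearly fixes this result. At the median wild-type ratio of degradome to Hyli sense counts, its 10 CPM of Hyli sense stands for 4.07 degradome counts, above the floor of 3. In colchicine-treated animals 66 of the 200 (33.0%) had at least 3 counts, against 11.5% of all transcripts, the median was 1 count, and 83 were at 0. A count of 0 there still allows up to 17.0 CPM. At the same height of 17.0 CPM, 66 transcripts with colchicine and 154 in wild type were at or above it, against 11.5% of all transcripts with colchicine and 10.9% in wild type. The number was thus lower with colchicine at an equal CPM as well.

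Few transcripts with low mRNA and no piRNA had capless RNA. Of 9365 transcripts that also had under 0.5 CPM of mRNA in each transgene-free library but under 1 CPM in all 8 piRNA columns, 20 reached 3 degradome counts with colchicine and 10 in wild type. Those 9365 were not matched to the 200 in mRNA: 65.2% of them, against 2% of the 200, were at 0 in all 6 mRNA libraries, and their median transgene-free mean was 0 CPM, against 0.197 CPM for the 200. Of the 888 with mRNA, 60.7% reached 3 counts with colchicine and 99.8% in wild type. The piRNA limits also shaped this contrast, since the wild-type degradome followed Hyli sense counts (Spearman rho 0.91 across the 200). At the median ratio of the 200, 10 CPM of Hyli sense stands for 4.07 degradome counts, and under 1 CPM for fewer than 3. The contrast between the 9365 and the 200 is therefore partly built in. The 200 made up 1.11% of wild-type degradome counts and 0.00413% of transgene-free mRNA counts, a ratio of 269, compared with 58.2 for the 888 and 0.704 for the 9365. These shares come from different animals and protocols, and the mRNA share of the 200 was held low by the rule. No correlation with mRNA is read across the 200, since the rule confined their mRNA to a few counts.

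**Figure D3:**
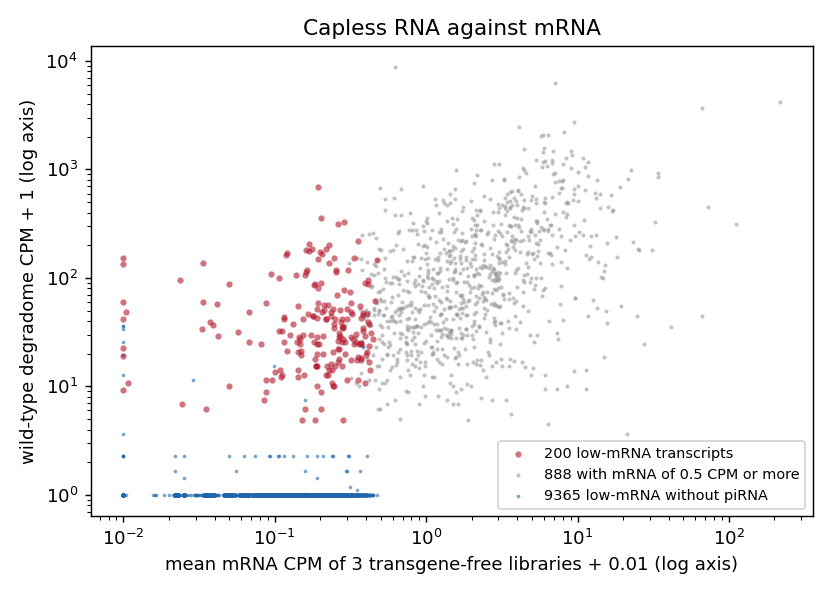
Wild-type degradome level (CPM + 1, log axis) against the mean mRNA level of the 3 transgene-free libraries (CPM + 0.01, log axis), 1 point per transcript, for the 200 low-mRNA transcripts (red), the 888 with mRNA (grey) and 9365 low-mRNA transcripts without piRNA (blue). The 200 have a median of 31.03 degradome CPM, and 10 of the 9365 reach 3 counts.

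The wild-type degradome followed Hyli sense piRNA closely. Per 1000 Hyli sense counts, the 200 had a median of 14.2 degradome counts (14.15), with 186 of them within 2-fold of it, and the 888 with mRNA had a median of 14.2 (14.19). The Spearman rho between the counts was 0.91 across the 200 and 0.96 across the 888. At that ratio the required 10 CPM of Hyli sense stands for 4.07 degradome counts, so that even a transcript at the rule's minimum lies near the floor of 3. The same ratio applied to the whole Hyli sense column gives 407254 counts (407254.5). The whole wild-type degradome held 765341 counts, and 473214 (473214.3) without its 2 most abundant transcripts, which held 38.2% of it. Over all transcripts with Hyli sense counts the median was 10.5 per 1000, with quartiles of 0 and 34.8. Among the 200 the quartiles were 11.3 and 17.7. Both kinds of library were made with the same small RNA kit, and whether small RNA entered the degradome library was not tested.

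In colchicine-treated animals the median was 1.46 degradome counts per 1000 Hyli sense counts, the highest was 1922 (1922.5), and the Spearman rho was 0.38. The 888 had a median of 5.06 and a rho of 0.53. The median was 1 degradome count, and 83 of the 200 were at 0. For most of the 200 this library is thus too shallow to show whether the ratio was as even as in wild type. Among the first 8 by rank it was less even. With colchicine it ran from 0.612 (t11485aep, 1 degradome count) to 25.4 (t31602aep, 46 counts), with t29390aep at 0.975 (5 counts on 5129 of Hyli sense). In wild type those 8 ran from 8.065 to 19.1. Among the transcripts with most counts in wild type, t38686aep had 3 degradome counts with colchicine and 523 in wild type, while Hyli sense counts were 2866 with colchicine and 37178 in wild type. Next in wild type came t27120aep with 15 counts with colchicine and 271 in wild type, t35467aep with 44 with colchicine and 251 in wild type, and t34599aep with 25 with colchicine and 239 in wild type. After them came t31602aep with 46 with colchicine and 166 in wild type, and t26579aep with 1 with colchicine and 155.5 in wild type. In CPM, which allows for the smaller library with colchicine, t35467aep was at 249 with colchicine and 328 in wild type, and t31602aep at 260 with colchicine and 217 in wild type. The other 4 were lower with colchicine in CPM too, with 5.65 to 141 CPM with colchicine and 203 to 683 CPM in wild type.

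**Figure D4:**
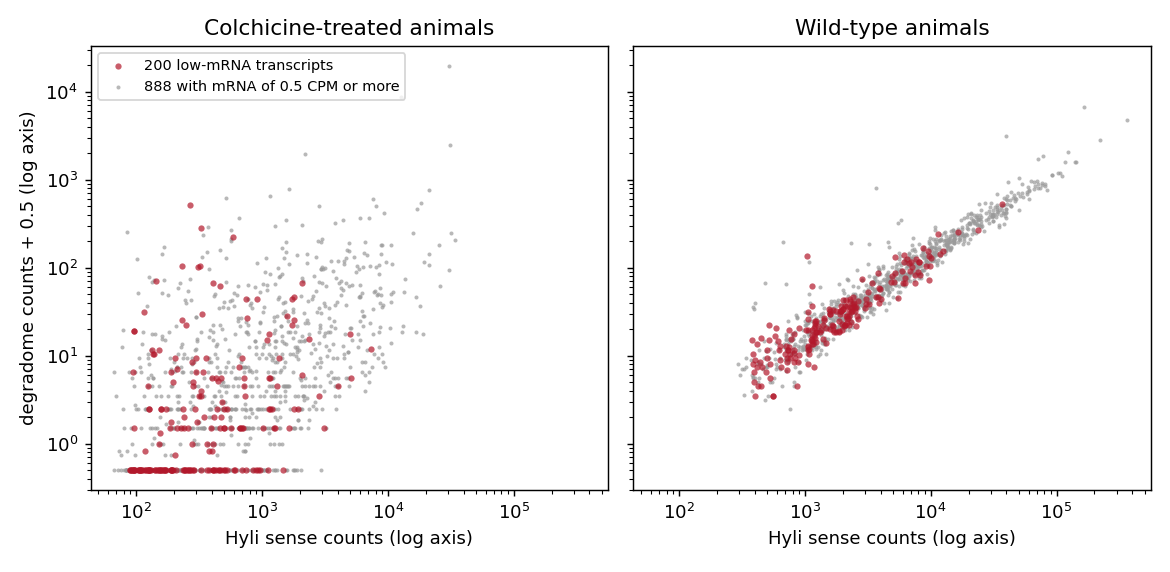
Degradome counts (+ 0.5, log axis) against Hyli sense counts (log axis) per transcript in colchicine-treated (left) and wild-type animals (right), for the 200 low-mRNA transcripts (red) and the 888 with mRNA (grey). The points form a narrow band in wild type, with 186 of 200 within 2-fold of 14.2 counts per 1000, and are spread more with colchicine, where the median is 1 count and 83 of 200 are at 0.

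By transcript, capless RNA was mostly lower with colchicine. On the log2(CPM + 1) scale, 120 of the 200 (60.0%) were lower by 4-fold or more and 12 (6%) higher by as much, against 10.4% lower and 8.33% higher among all transcripts, and 47.1% lower and 7.66% higher among the 888. All 200 had at least 3.92 CPM in wild type, so each of the 83 at 0 with colchicine counted as 4-fold lower. A 0 there still allows up to 17.0 CPM. Of all transcripts 69.45% were at 0 in wild type and could not count as lower. The contrast with all transcripts is therefore partly built in. The median difference of the 200 was -2.82. The sum went the other way, at 13450 CPM with colchicine and 11122 CPM in wild type, because 6 transcripts held 56.0% of the counts with colchicine and 3.62% in wild type. They were t23538aep with 521 counts with colchicine and 137 in wild type, t7708aep with 281 with colchicine and 29 in wild type, and t259aep with 221 with colchicine and 39 in wild type. The other members of the 6 were t18314aep with 103.3 with colchicine and 38 in wild type, t35624aep with 103 with colchicine and 32.5 in wild type, and t14837aep with 102 with colchicine and 33 in wild type. The other 194 summed to 5924 CPM with colchicine and 10718 CPM (10718.5) in wild type, a comparison chosen after the values were seen. Of the 6, t23538aep also stood out in wild type, with 133 degradome counts per 1000 Hyli sense counts, the highest of the 200, and its Hyli counts were 75.6% antisense with colchicine and 56.9% in wild type. In the other 5 the wild-type ratio was 15.8 to 21.3.

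The mRNA of the 200 was low in every library, with higher sums in the knockdown libraries. Summed over the 200 it was 74.7, 49.7 and 52.7 CPM in knockdown libraries 1 to 3 and 46.8, 39.6 and 37.5 CPM in transgene-free libraries 1 to 3, or 59.0 ± 13.6 CPM in the knockdown and 41.3 ± 4.88 CPM in transgene-free animals (SD, n = 3 each). Every knockdown sum lay above every transgene-free sum, by a ratio of 1.43 between the means and of 1.595, 1.25 and 1.41 between libraries of the same number. No weight can be put on that direction, because the transgene-free libraries chose the transcripts for low values. The 888 with mRNA had a ratio of 1.27 and the 9365 low-mRNA transcripts without piRNA 1.25.

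Per transcript, 69 of the 200 reached 0.5 CPM in at least 1 knockdown library and 4 did in all 3, against 5.92% and 0.364% of the 19495 transcripts with transgene-free mRNA under 0.5 CPM, and 51.7% and 44.9% of all transcripts. All 3 knockdown libraries lay above all 3 transgene-free libraries in 31 (15.5%), against 5.73% of all transcripts and 16.7% of the 888, and below them in 0, against 1.54% of all. In same-number pairs 61 were higher in all 3 and 3, t9813aep, t8090aep and t12263aep, were lower in all 3, against 19.5% and 7.14% of all transcripts and 51.1% and 0.676% of the 888. As the rule used the transgene-free side of this contrast, nothing is read from these shares.

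Across the whole table, edgeR's quasi-likelihood test with Benjamini-Hochberg adjustment called 0 of 19683 transcripts higher and 0 lower at an adjusted p under 0.05 (0% each), and 577 and 141 at an unadjusted p under 0.05. Only 43 of the 200 passed the low-count filter, which a transcript could pass through the group where it was higher. Of those 43, 4 were higher and 0 lower at an unadjusted p under 0.05, against 2.93% and 0.716% of all tested. With the replicate number as a block the test called 231 higher (1.17%) and 18 lower (0.0914%) in the whole table, and none of the 43, with 7 higher and 0 lower at an unadjusted p under 0.05, against 8.51% and 5.24% of all tested. DESeq2 called 2 higher and 1 lower, also none of the 43, with 2 of them higher and 0 lower at an unadjusted p under 0.05, against 1.83% and 0.645% of all tested (adjusted, 0.0102% and 0.00508%). The transgene-free side of this contrast chose the 43 for low values, so nothing is read from their lean to higher values in any of these fits.

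The highest knockdown means belonged to t34752aep, with 0.987, 0.629 and 1.58 CPM in the knockdown and 0.405, 0.472 and 0.429 CPM in transgene-free animals. The groups did not overlap, and edgeR gave a log2 fold change of 1.195 (SE 0.39, adjusted p = 0.875). For t29784aep the values were 2.08, 0.520 and 0.535 CPM in the knockdown and 0.00225, 0.00181 and 0.329 CPM in transgene-free animals. Its log2 fold change of 3.14 (SE 1.00, adjusted p = 0.875, edgeR) was 7.75 without transgene-free library 3, which held nearly all reads of that group. For t4767aep they were 1.02, 0.729 and 0.602 CPM in the knockdown and 0.296, 0.479 and 0 CPM in transgene-free animals. Both of these had groups that did not overlap and a transgene-free library at or near 0. For t31268aep the values were 0.744, 0.665 and 0.568 CPM in the knockdown and 0.412, 0.431 and 0.387 CPM in transgene-free animals, again without overlap. In t31304aep, at 0.845, 1.06 and 0.365 CPM in the knockdown and 0.399, 0.488 and 0.320 CPM in transgene-free animals, and in t30251aep, at 0.540, 1.09 and 0.431 CPM in the knockdown and 0.390, 0.499 and 0.496 CPM in transgene-free animals, the groups overlapped. The first 4 are also the 4 that reached 0.5 CPM in all 3 knockdown libraries. The rule held their transgene-free values under 0.5 CPM, so the groups of these 4 could not overlap. Nothing is read from that, nor from fold changes of transcripts named for a high knockdown mean.

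**Figure D5:**
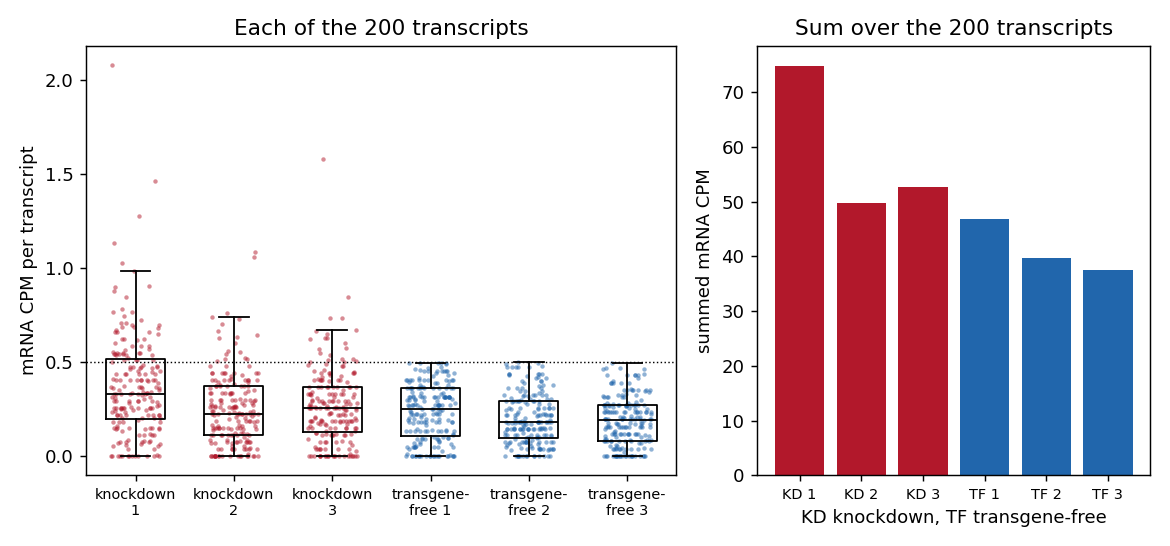
mRNA level (CPM) of each of the 200 transcripts by library, with quartile boxes and the 0.5 CPM limit dotted (left), and the summed CPM of the 200 by library (right), knockdown (red, KD) left of transgene-free (blue, TF). The limit cuts the transgene-free values by construction; the knockdown sums are 74.7, 49.7 and 52.7 CPM and the transgene-free sums 46.8, 39.6 and 37.5 CPM.

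For 4 of the 200 transcripts (2%) no mRNA was counted in any of the 6 libraries, against 24.7% of all transcripts and 49.1% of the 19495 with transgene-free mRNA under 0.5 CPM. A count of 0 allows up to 0.110 to 0.111 CPM in the knockdown and 0.109 to 0.135 CPM in transgene-free animals. Among them t5950aep had 167 CPM of Hywi antisense and 136 CPM of Hyli sense with colchicine, and 271 CPM of Hywi antisense and 247 CPM of Hyli sense in wild type. It had 43 degradome counts with colchicine and 101 in wild type. The others were t36600aep with 0 degradome counts with colchicine and 31.5 in wild type, t36601aep with 2 with colchicine and 45.5 in wild type, and t22352aep with 1 with colchicine and 6.33 in wild type. All 4 thus had piRNA and wild-type capless counts without any counted mRNA in the hatchlings, which were other animals at another stage.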

How the data were processed

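The authors deposited 3 tables of estimated counts per transcript, not normalized, per the file headers: mRNA per replicate, IP small RNA with antisense and sense mapping apart, and sense-mapped degradome. The submitters' processing notes name Trimmomatic 0.33, RSEM 1.2.31 and Bowtie 1.1.2 for mRNA, and cutadapt, RSEM 1.2.31 and Bowtie for the others; the genome build is not given in the sources used here. All 16 value columns were matched to the 12 samples by name and 0 were left over.

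CPM used each column's own total. Folds between single libraries are on the log2(CPM + 1) scale. Intervals are 95% Wilson intervals on pooled counts and, like the floor of 3 counts, cover counting error at most, not the spread between transcripts or animals. PCR reads are not independent molecules, and many counts are fractions of reads shared between transcripts, so the intervals are likely too narrow. Values were called whole within 1e-06. mRNA counts were rounded, filtered with filterByExpr, scaled by TMM and tested two-sided over the whole table with edgeR 4.0.16 (R 4.3.3), threshold 0.05, and with DESeq2 1.42.0 as an alternative. The edgeR fit and the selection were tested on simulated data. Python 3.11.15, numpy 2.4.6, pandas 2.3.3 and scipy 1.17.1 gave the rest.

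Members, lists and named transcripts were chosen with earlier results of these data known. Named were the first 8 by rank, the 6 with most degradome counts in each library, the 6 with the highest knockdown mean, the 3 highest and 3 lowest Hyli antisense shares with colchicine, and 2 on either side of the cut at 200. A transcript outside these is said to be chosen after its values were seen, or completes a count of 5 or fewer.

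No label says what the mRNA replicate number marks, nor that replicates are separate cultures, so p-values measure the spread between these libraries. Libraries with the same number deviated together from their group means, with correlations of 0.62, 0.268 and 0.297, while the other pairs gave -0.429 to 0.196. All 3 exceeded 0.1, but so did other pairs, at 0.153 and 0.196, so that limit alone does not single out the same-number pairs. Each library nevertheless correlated most with the library of its own number in the other group, which favours a pairing. The main fit used no block because the labels do not say what the number marks, and the replicate block was run as an alternative. The choice matters for the whole table, with 0 transcripts called without the block and 249 with it. Of the names, 0 matched the RefSeq gene table (assembly HydraT2T_AEP).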

Additional observations from a re-analysis of the deposited data

How the results depend on the processing

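The number that met the rule, 237, was 139 at a piRNA minimum of 20 CPM, 74 at 2-fold, 89 and 396 at mRNA limits of 0.25 and 1 CPM, and 157 with CPM over both strands. Median-ratio scaling over all 8 piRNA columns gave 84, with 56 of the 200 among them; scaling within each protein and strand, added after that value was seen, gave 235, with 166 of the 200. The count of transcripts with 3 degradome counts with colchicine, 66, was 108 at 1 count and 33 at 10 counts. The median degradome difference was -1.73 with a pseudocount of 5 CPM, and the log2 ratio of summed degradome CPM, 0.27, was -0.86 without the 6 transcripts with most counts with colchicine (added after seeing the data). The Hyli antisense share, 21.7 percentage points higher with colchicine, was 14.5 higher by the median of shares, 18.2 without the largest transcripts and 7.65 in the 3 transcripts with only whole counts. The Hywi share, 1.46 points higher, was 0.538 by the median and -0.0204 without the largest; no transcript had only whole Hywi counts, so that alternative gave no value. The cause of these moves was not tested.

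With the replicate block 249 mRNA transcripts were called (231 higher, 18 lower) and with DESeq2 3, against 0. Leaving out each mRNA library gave 0 calls in each fit, and a log2 ratio of summed mRNA of 0.309 to 0.624 around 0.51; it was 0.497 with the replicate block. For t30251aep the log2 fold change of 0.45 ranged from -0.059, without knockdown library 2, to 0.668, without knockdown library 3. Degradome depth with colchicine limits any statement under 17.0 CPM.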
